A study of Mus musculus with 12 samples.

Results

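The inhibitory and exhaustion receptors of T cells were described by 9 genes, Ctla4, Lag3, Havcr2, Tigit, Tox, Cd160, Btla, Entpd1 and Cd244a, chosen by name from the 43698 rows of the deposited gene count table. All 9 were found, and all 9 passed the low-count filter that left 19525 genes for testing. Tox encodes a nuclear factor and the others surface proteins. Tumours of MC38, a mouse colon carcinoma line, grew in the left flank of C57BL/6J mice aged 8 weeks and were taken on day 20, in 6 groups of 2 libraries. The labels were read so that RP is Ru-PD-L1, a catalyst linked to an antibody, given alone (20 µg, 0.80 mg/kg). R+X was taken as the conjugate with DOX, and R+D as the conjugate with DPD, the dose of conjugate in these combinations not being stated in the labels. DOX (doxorubicin) and DPD (its prodrug) were also given alone (14 µg, 0.56 mg/kg), and Ctrl mice received PBS. Dosing was every 3 days from day 9, into the peritoneum for single agents, while in the combined groups 14 µg of drug was injected beside the tumour 6 hours after the conjugate. Drug route therefore changed with the combination. The mice carried no engineered allele that the labels name, and the MC38 cells came from 1 line.

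Inhibitory receptors are raised on T cells after antigen recognition and hold back their signalling when they meet ligands on tumour, myeloid or stromal cells. In tumours with lasting antigen, several of them are carried together on cells called exhausted. CTLA-4 competes with CD28 for CD80 and CD86, LAG-3 binds MHC class II, TIM-3 (Havcr2) binds galectin-9 and other ligands, TIGIT binds CD155, and BTLA and CD160 bind HVEM. CD244 (2B4) binds CD48, and CD39 (Entpd1) breaks down extracellular ATP on the way to adenosine. TOX is a DNA-binding protein that maintains the exhausted state. Most of these genes are not confined to T cells: TIM-3 is also found on macrophages and dendritic cells, CD39 on endothelium, myeloid cells and regulatory T cells, and CD244 and CD160 on NK cells.

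Promoter sequence is shown for 3 members, because Havcr2 and Cd244a had the highest correlation of any pair of members over the libraries, and Ctla4 the highest of the members with Cd3e. The promoter table used, made from RefSeq (250 bases before to 50 after a start site, build GRCm38), matched 7 members, Lag3 and Tox not among them. Capitals mark matches, on either strand, to an NFAT core (GGAAA), AP-1 (TGANTCA), STAT (TTCNNNGAA) or RUNX (TGTGGT) motif, named after factors that act in activated T cells. The windows are Ctla4 at chr1:60908775-60909074, Havcr2 at chr11:46454681-46454980 and Cd244a at chr1:171558943-171559242, all on the plus strand.
Ctla4: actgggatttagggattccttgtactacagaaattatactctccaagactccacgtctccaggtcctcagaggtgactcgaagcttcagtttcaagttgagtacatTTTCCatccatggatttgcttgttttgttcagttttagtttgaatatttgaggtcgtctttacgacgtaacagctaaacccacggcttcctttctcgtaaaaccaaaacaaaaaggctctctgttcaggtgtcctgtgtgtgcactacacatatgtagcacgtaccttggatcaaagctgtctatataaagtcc
Havcr2: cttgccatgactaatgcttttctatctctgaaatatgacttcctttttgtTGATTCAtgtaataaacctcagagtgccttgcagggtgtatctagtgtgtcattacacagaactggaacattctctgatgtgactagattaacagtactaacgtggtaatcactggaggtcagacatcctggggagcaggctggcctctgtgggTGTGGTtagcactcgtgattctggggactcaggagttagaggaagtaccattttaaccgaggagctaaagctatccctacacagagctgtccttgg
Cd244a: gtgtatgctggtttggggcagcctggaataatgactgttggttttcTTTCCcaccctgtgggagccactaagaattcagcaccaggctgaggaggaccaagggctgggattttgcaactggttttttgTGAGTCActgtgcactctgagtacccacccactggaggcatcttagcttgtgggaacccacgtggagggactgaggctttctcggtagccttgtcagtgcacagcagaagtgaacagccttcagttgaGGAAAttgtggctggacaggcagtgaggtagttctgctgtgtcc
Of the 9 promoters of these 7 members, 5 held an NFAT core, 2 an AP-1 motif, 1 a STAT motif and 6 a RUNX motif. Among 32851 promoters of the same length the shares with a match were 61.3% for the NFAT core, 7.81% for AP-1, 8.3% for STAT and 16.8% for RUNX. Both AP-1 matches lay in the sequences above, at -200 of the start of Havcr2 and -122 of that of Cd244a. A match is a string of letters in this window and was not related to binding.

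The libraries held 46547114 to 56462259 counts each. Levels are CPM, counts relative to a library total adjusted by TMM (a scaling that discounts genes with extreme counts), and tests are edgeR quasi-likelihood tests across all genes with Benjamini-Hochberg adjusted p under 0.05 as the threshold. Replicates were not equally close: the chi-square of their counts, divided by its degrees of freedom, was 13.2 for the R+X libraries and 210 for those of DOX, where counting noise alone gives about 1. T cell markers (14 genes, Cd3e and Cd8a among them) summed to 117 and 99.7 CPM in RP and 63.7 and 108 in R+D. The sums were 56.7 and 44.2 CPM in R+X, 52.2 and 39.9 in DOX, 69.7 and 76.0 in DPD, and 71.7 and 66.7 in Ctrl. In bulk tumour, fewer T cells and less RNA per T cell cannot be told apart. Of the carcinoma epithelium markers, Cdx2 was at 0 in all 12 libraries and Krt8 and Krt18 were at or near 0, while Cdh1 was present. Skeletal muscle transcripts stood apart in 3 libraries. Their 14 genes summed to 275 and 104 CPM in RP and 29.2 and 367 in R+D, against 11.5 to 30.3 in the other 8 libraries.

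To compare genes, levels were divided by kilobases of exon, from protein-coding transcripts in the GENCODE annotation. The annotation used for counting is not stated, so its lengths may differ. The median level over the 12 libraries was 4.59 CPM per kb for Lag3, 3.88 for Entpd1 and 3.78 for Havcr2. These 3 stood above Cd3e (2.66), Cd8a (2.34) and Pdcd1, the PD-1 gene (1.69). Cd244a (0.558), Ctla4 (0.344), Cd160 (0.201), Btla (0.0748) and Tox (0.0527) stood below. The ranges of Lag3 (3.26 to 8.37 CPM per kb), Entpd1 (2.79 to 6.48) and Havcr2 (2.50 to 6.57) overlapped widely, so the order among them is not fixed by these libraries. Tigit stood far above all of them at 35.9 CPM per kb, a value that rests on an uncertain assignment of reads described further on. Btla was counted with 0 to 39 reads per library and Tox with 0 to 38, so both are imprecise.

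The conjugate alone was compared first, RP against Ctrl. All 9 members had positive fold changes, with a median log2 fold change of 0.86, against 53.9% positive and a median of 0.0577 over all genes tested. None of the 9 passed the edgeR threshold, which 0.0154% of all genes passed. At an unadjusted p under 0.05, 5 of the 9 were higher (Ctla4, Lag3, Havcr2, Btla and Entpd1) and 0 lower, while 12% of all genes were higher and 9.38% lower. The groups did not overlap for 7 of 9 members, all higher in RP, where 32.3% of all genes were higher without overlap. DESeq2, run as an alternative, gave an adjusted p for 7 members and called Entpd1 (0.84, adjusted p = 0.00517) and Havcr2 (0.90, adjusted p = 0.0402), and 7.05% of all genes.

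**Figure D1:**
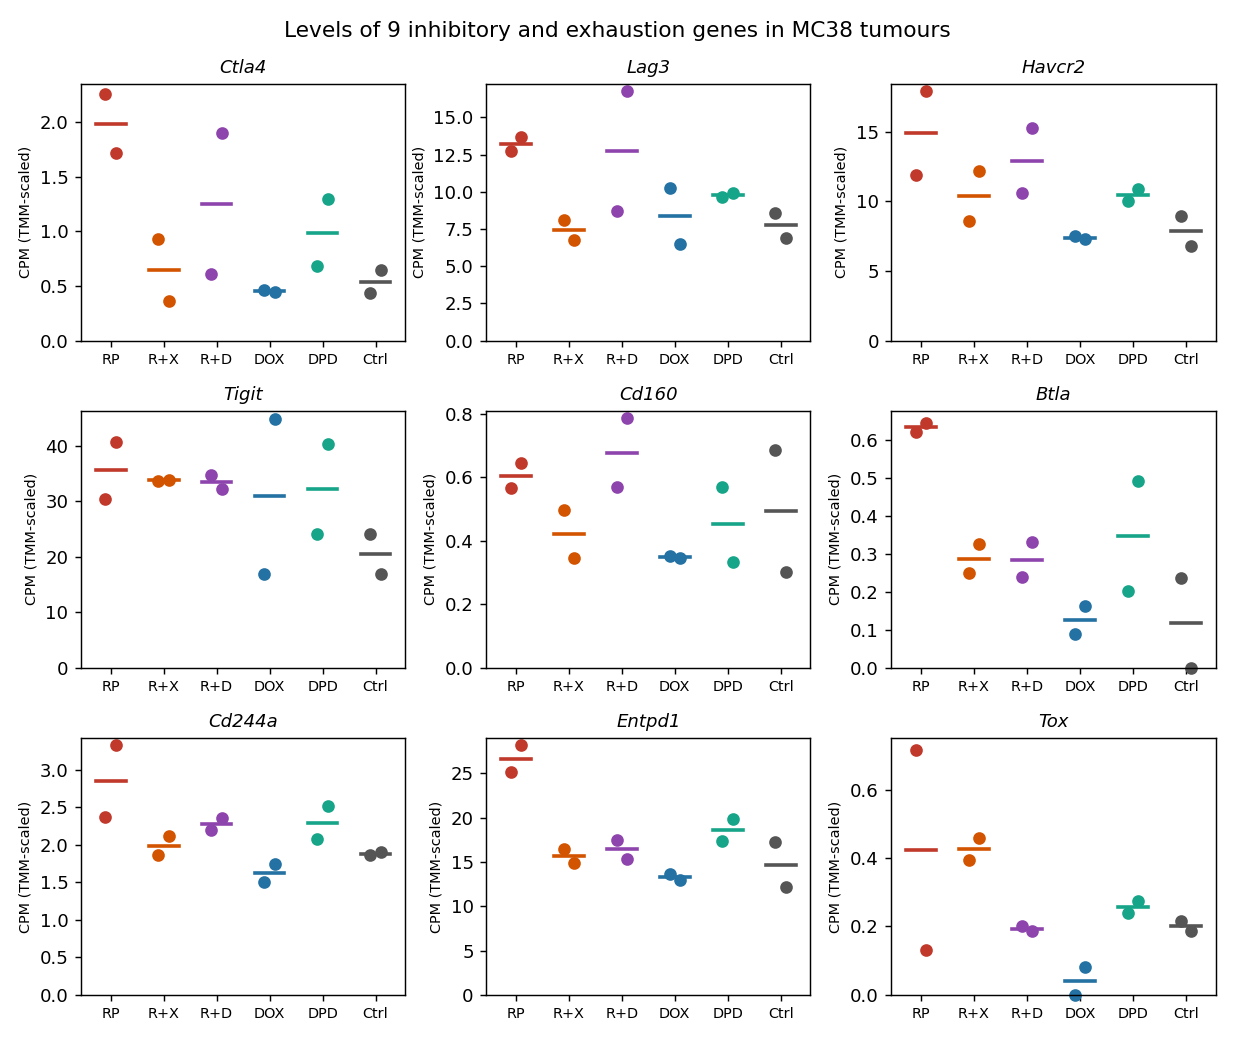
TMM-scaled CPM of the 9 genes in each of the 12 libraries, with group means as short lines (n = 2 libraries a group; each panel has its own scale from 0). RP has the highest group mean for each gene except Tox (R+X highest) and Cd160 (R+D highest), and R+D replicate 2 stands with them for Ctla4 and Lag3.

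Among receptors with ligands on antigen-presenting cells, Ctla4 was at 2.26 and 1.72 CPM in RP libraries, 0.931 and 0.363 in R+X, 0.606 and 1.90 in R+D, 0.463 and 0.445 in DOX, 0.680 and 1.297 in DPD, and 0.432 and 0.650 in Ctrl. Both RP libraries and R+D replicate 2 were the highest, R+X replicate 2 was the lowest, and the DOX libraries lay within the Ctrl range. RP exceeded Ctrl by 1.88 ± 0.62 log2 units, a 3.67-fold difference with a 95% interval of 1.41 to 9.58 (edgeR adjusted p = 0.17). Summing Ctla4 with the first of 2 rows named as its copies gave 1.91 (edgeR adjusted p = 0.146). Once a score of skeletal muscle genes entered the fit, the Ctla4 difference was 0.63 (edgeR adjusted p = 0.629). That fit called 0% of all genes. Muscle transcripts summed to 275 and 104 CPM in RP and to 30.3 and 26.4 in Ctrl. Muscle content and treatment therefore cannot be told apart here, nor in the covariate fits of the members below.

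Lag3 was at 12.7 and 13.7 CPM in RP, 8.11 and 6.77 in R+X, 8.68 and 16.8 in R+D, 10.3 and 6.52 in DOX, 9.67 and 9.88 in DPD, and 8.60 and 6.89 in Ctrl. Its highest library was R+D replicate 2, which was also the richest in muscle transcripts and in Cd3e and Cd8a. The RP difference from Ctrl was 0.77 ± 0.31 (edgeR adjusted p = 0.205), and 0.15 with the muscle covariate (edgeR adjusted p = 0.835).

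Havcr2, the TIM-3 gene, was at 11.9 and 17.9 CPM in RP, 8.55 and 12.2 in R+X, 10.6 and 15.3 in R+D, 7.48 and 7.31 in DOX, 10.01 and 10.9 in DPD, and 8.95 and 6.80 in Ctrl. Apart from R+X replicate 1, each library with the conjugate lay above both Ctrl libraries. The difference was 0.92 ± 0.28 for RP (edgeR adjusted p = 0.156) and 0.71 ± 0.28 for R+D (edgeR adjusted p = 0.314), each against Ctrl. For RP it was 0.80 with the muscle covariate (edgeR adjusted p = 0.435).

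Of the HVEM-binding pair, Btla was at 0.621 and 0.644 CPM in RP, 0.248 and 0.325 in R+X, 0.239 and 0.331 in R+D, 0.0882 and 0.162 in DOX, 0.202 and 0.491 in DPD, and 0.235 and 0 in Ctrl. The RP libraries, with 33 and 39 reads, lay above all others, and the Ctrl libraries held 12 and 0 reads. The RP difference of 2.36 ± 1.04 (edgeR adjusted p = 0.227) became 8.01 without Ctrl replicate 1 and 1.41 without Ctrl replicate 2, so its size rests on the library with no reads, and a fit against no reads depends on the prior count. Cd160 was at 0.565 and 0.644 CPM in RP, 0.497 and 0.344 in R+X, 0.569 and 0.785 in R+D, 0.353 and 0.344 in DOX, 0.570 and 0.334 in DPD, and 0.687 and 0.302 in Ctrl. Ctrl spanned nearly the whole range of this gene, and the RP difference was 0.28 ± 0.54 (edgeR adjusted p = 0.767).

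Cd244a, the 2B4 gene, was at 2.37 and 3.34 CPM in RP, 1.86 and 2.12 in R+X, 2.20 and 2.36 in R+D, 1.4997 and 1.74 in DOX, 2.08 and 2.52 in DPD, and 1.86 and 1.90 in Ctrl. Its spread over all libraries was the smallest of the members, with a highest library 2.22 times the lowest. RP differed from Ctrl by 0.60 ± 0.28 (edgeR adjusted p = 0.24).

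Entpd1, the CD39 gene, gave the smallest p of the members in RP against Ctrl. It was at 25.1 and 28.2 CPM in RP, 16.4 and 14.9 in R+X, 17.5 and 15.3 in R+D, 13.6 and 13.0 in DOX, 17.3 and 19.9 in DPD, and 17.3 and 12.1 in Ctrl. The RP libraries stood above all others, and those of R+X and R+D lay in the Ctrl range apart from R+D replicate 1, which was slightly above it. RP exceeded Ctrl by 0.86 ± 0.20, a 1.81-fold difference with a 95% interval of 1.34 to 2.45 (edgeR adjusted p = 0.127). With the muscle covariate it was 0.96 (edgeR adjusted p = 0.435). The combinations against RP were -0.77 ± 0.19 for R+X (edgeR adjusted p = 0.278) and -0.70 ± 0.19 for R+D (edgeR adjusted p = 1). DESeq2 called the R+X difference from RP (-0.76, adjusted p = 0.0305), as it did 1.48% of all genes.

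Tox was at 0.715 and 0.132 CPM in RP, 0.393 and 0.459 in R+X, 0.202 and 0.186 in R+D, 0 and 0.081 in DOX, 0.239 and 0.275 in DPD, and 0.216 and 0.186 in Ctrl. The RP libraries lay at both ends, with the highest level of the 12 and a level above the DOX libraries alone. RP differed from Ctrl by 1.06 ± 0.95 (edgeR adjusted p = 0.508), and by -0.63 without RP replicate 1, which turned the direction. DOX differed from Ctrl by -2.21 ± 1.14 (edgeR adjusted p = 1), with 0 and 4 reads in DOX and 11 and 8 in Ctrl.

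**Figure D2:**
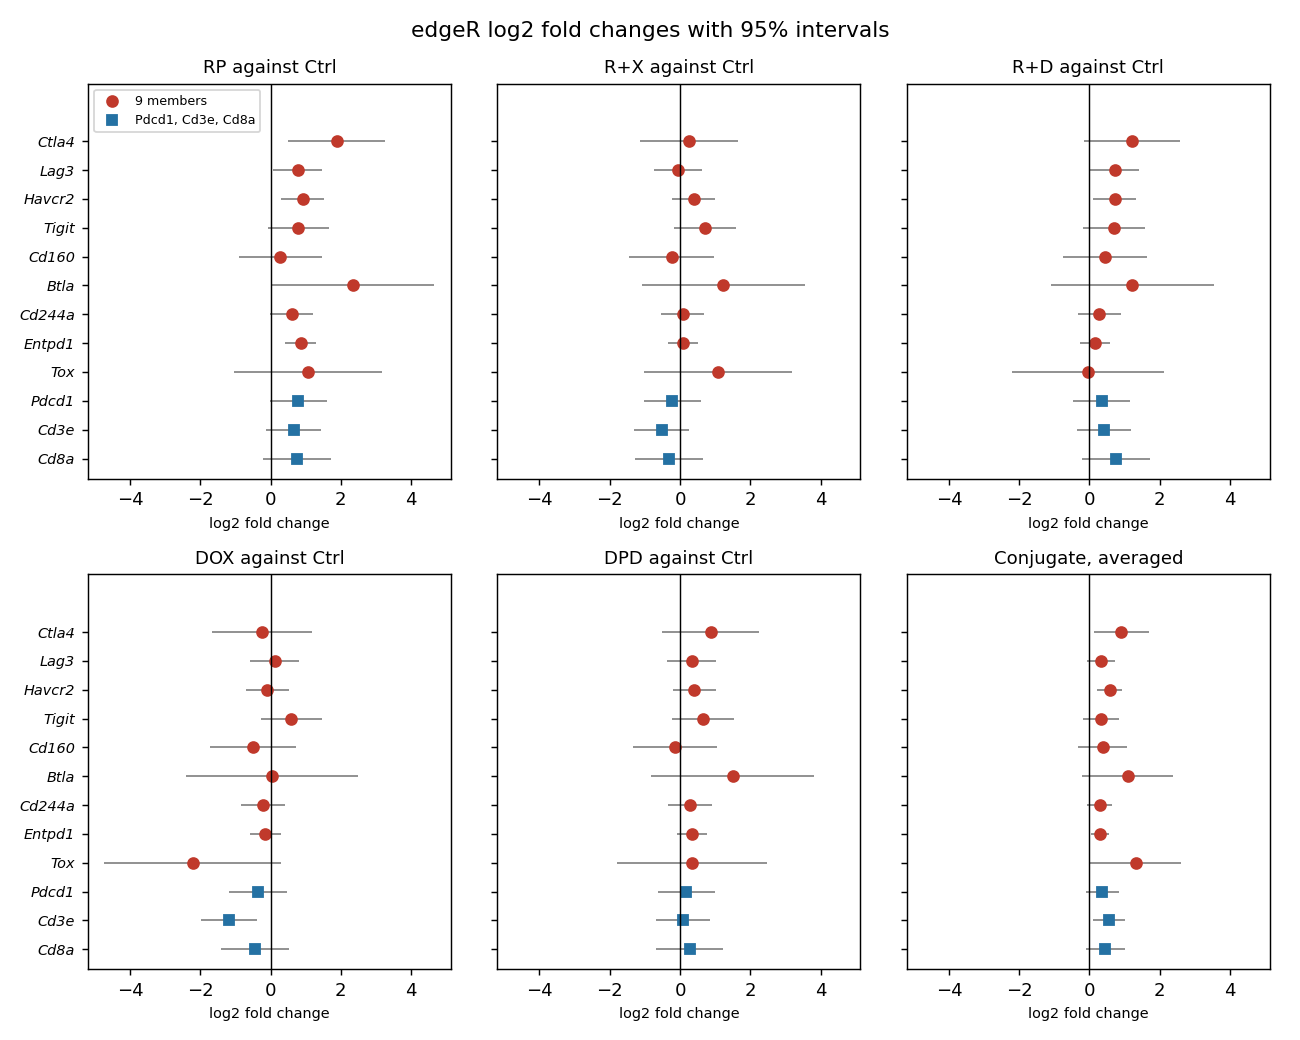
edgeR log2 fold changes with 95% intervals for the 9 members (circles) and for Pdcd1, Cd3e and Cd8a (squares), in the 5 treatments against Ctrl and in the conjugate comparison averaged over drug settings. In RP all 9 circles lie right of 0, with Ctla4 at 1.88 and Entpd1 at 0.86; in DOX 6 lie left of 0.

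The other treatments were compared with Ctrl in the same fit. In R+D 8 of 9 members were positive (median 0.71; 53.3% of all genes), and 2 of them, Lag3 (0.71 ± 0.31) and Havcr2, had an unadjusted p under 0.05, where 8.69% of all genes were higher. In R+X 7 were positive (median 0.26; 50.6% of all genes), the largest being Btla at 1.23 ± 1.05, Tox at 1.07 ± 0.95 and Tigit at 0.72 ± 0.40. In DPD 8 were positive (median 0.35; 51.3% of all genes) and in DOX 3 (median -0.15; 51.4% of all genes). In these 4 comparisons 0 of 9 members passed edgeR, as did 0% of all genes, with adjusted p from 0.314 to 1. At an unadjusted p under 0.05, 0 members were lower in R+D (6.66% of all genes) and 0 were higher or lower in R+X (3.53% and 2.47% of all genes), DPD (2.61% and 1.4%) and DOX (0.86% and 1.22%). DESeq2 called 0 of the 7 members with an adjusted p in R+D (1.43% of all genes), and 0 of 9 in R+X (0.0205%), DPD (0.0359%) and DOX (0.00512%). Without R+D replicate 2 the R+D differences were 0.15 for Lag3, 0.16 for Ctla4 (1.21 with it) and 0.41 for Havcr2. The 7 members higher without overlap in DPD stood against 20.4% of all genes, the 5 in R+D against 30.8% and the 3 in R+X against 28.5%. DOX had 0 higher (8.29% of all genes) and 2 lower (9.43%). The treatments share the Ctrl libraries, so these counts are not independent of each other.

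Averaged over no drug, DOX and DPD, the conjugate was compared with its absence in 6 libraries against 6. With DOX and with DPD the drug route changed along with the conjugate, and those changes cannot be told apart. All 9 members were positive (median log2 difference 0.38; 53.4% of all genes positive, median 0.0285), and 0 of 9 passed edgeR, which 0.0154% of all genes passed. At an unadjusted p under 0.05, 4 were higher (Ctla4, Havcr2, Tox and Entpd1), against 10.9% of all genes, and 0 lower, against 9.47%. Havcr2 had 8.55, 12.01 and 17.9 CPM as the lowest, median and highest library with the conjugate and 6.80, 8.21 and 10.9 without it. The averaged difference of Havcr2 was 0.57 ± 0.16 (edgeR adjusted p = 0.168), and DESeq2, with an adjusted p for 7 members, called it (0.56, adjusted p = 0.0309), as it did 5.75% of all genes. Ctla4 had 0.363, 1.32 and 2.26 CPM with the conjugate and 0.432, 0.557 and 1.297 without it. Its averaged difference of 0.91 ± 0.36 (edgeR adjusted p = 0.213) was -0.0453 with the muscle covariate, and that of Lag3 (0.33 ± 0.18, edgeR adjusted p = 0.314) was -0.14. For 0 of 9 members did the 6 libraries with the conjugate lie wholly above or below the 6 without it, as was the case for 0.236% of all genes (higher).

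Without DOX replicate 2 the averaged comparison called 2 members, Tigit (0.61, edgeR adjusted p = 0.0365) and Tox (2.70, edgeR adjusted p = 0.0462), and 15.6% of all genes. That library held the highest Tigit level of the 12, and Tox had 4 reads in it; the remaining DOX library had 0 Tox reads, so the value of 2.70 depends on the prior count. Leaving out any other library gave 0 calls. Of the departures from additivity, which take in the change of drug route too, that of Entpd1 with DPD was -1.04 ± 0.28 (edgeR adjusted p = 0.84). With DOX it was -0.62 ± 0.28 (edgeR adjusted p = 0.998). Entpd1 alone was lower at an unadjusted p under 0.05 in each, where 3.45% of all genes were lower with DPD and 2.75% with DOX. None of the 9 passed edgeR (0% of all genes) or DESeq2 (0.0359% with DPD and 0.0333% with DOX).

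Set against RP, the combinations tended lower. In R+X 1 of 9 members was positive (median -0.52; 49.6% of all genes), and 3 were lower at an unadjusted p under 0.05, Ctla4 (-1.62 ± 0.61), Lag3 (-0.83 ± 0.31) and Entpd1, against 6.43% of all genes (0 higher, 2.25%). In R+D 1 of 9 was positive (median -0.33; 50.7% of all genes), and Entpd1 alone was lower at that threshold, against 1.95% of all genes. Both comparisons share the RP libraries, and the conjugate dose of the combinations is not stated. T cell sums were 117 and 99.7 CPM in RP, 56.7 and 44.2 in R+X, and 63.7 and 108 in R+D. Muscle sums were 275 and 104 CPM in RP, 24.2 and 12.7 in R+X, and 29.2 and 367 in R+D. Their part in the members' differences was not tested. In R+X against DOX and in R+D against DPD the drug route changed along with the conjugate, and those changes cannot be told apart. R+X against DOX gave 8 positive members (median 0.30; 48.9% of all genes) and 1 with an unadjusted p under 0.05 (1.75% of all genes higher). That was Tox, which, with 19 and 24 reads in R+X and 0 and 4 in DOX, differed by 3.29 ± 1.12 (edgeR adjusted p = 0.965). R+D against DPD gave 5 positive members (median 0.0536; 51.4% of all genes) and 0 with an unadjusted p under 0.05 (1.52% of all genes higher). Across these 4 comparisons edgeR called 0 members and 0% of all genes, and DESeq2 called Entpd1 in R+X against RP, as given above, and no member with an adjusted p in the other 3 (0.0606% of all genes in R+D against RP, 0.0154% in R+X against DOX and 0.0359% in R+D against DPD).

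DOX and DPD differ in that DPD is a prodrug of DOX, and they were compared at the same dose alone and with the conjugate, over 9 members in each pair. DPD against DOX gave positive differences for all 9 members (median 0.50; 47.6% of all genes). Entpd1 was at 17.3 and 19.9 CPM in DPD, against 13.6 and 13.0 in DOX, a difference of 0.49 with a 95% interval of 0.06 to 0.92 (edgeR adjusted p = 0.979). Tox differed by 2.56 (0.08 to 5.04), on 13 and 14 reads in DPD and 0 and 4 in DOX. For Ctla4 the difference was 1.12 (-0.27 to 2.51), for Havcr2 0.50 (-0.11 to 1.11), for Lag3 0.22 (-0.47 to 0.91) and for Tigit 0.06 (-0.81 to 0.93). The groups did not overlap for 6 members, higher in DPD, against 13.4% of all genes. Cd3e differed in the same direction by 1.27 ± 0.36 (edgeR adjusted p = 0.979). In R+D against R+X, 6 of 9 were positive (median 0.19; 50.7% of all genes), and Lag3 differed by 0.77 (0.08 to 1.47; edgeR adjusted p = 0.914), beside Cd8a at 1.09 ± 0.44 and Cd3e at 0.93 ± 0.35. Without R+D replicate 2 that Lag3 difference was 0.21. Entpd1 differed by 0.07 (-0.36 to 0.50) in that pair. At an unadjusted p under 0.05, 2 members were higher in DPD against DOX (3.01% of all genes; 0 lower, 1.28%) and 1 in R+D against R+X (3.75%; 0 lower, 1.52%). None passed edgeR (0% of all genes). DESeq2 called 0 of the 7 members with an adjusted p in DPD against DOX (0.062% of all genes) and 0 of 9 in R+D against R+X (0.234%). These intervals leave room for differences in either direction for most members.

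Whether the members moved beyond the T cells as a whole was asked by dividing each by Cd3e, a chain of the T cell receptor complex, and by Cd8a, the coreceptor of cytotoxic T cells. Cd3e was at 6.78 and 5.45 CPM in RP, 3.37 and 2.05 in R+X, 3.40 and 6.96 in R+D, 1.63 and 1.78 in DOX, 4.08 and 4.15 in DPD, and 3.75 and 4.02 in Ctrl. Cd8a was at 8.27 and 13.1 CPM in RP, 6.99 and 3.10 in R+X, 7.66 and 13.8 in R+D, 4.92 and 4.43 in DOX, 6.84 and 8.43 in DPD, and 8.14 and 4.48 in Ctrl. RP differed from Ctrl by 0.65 ± 0.35 in Cd3e and 0.76 ± 0.44 in Cd8a (edgeR adjusted p = 0.287 and 0.316). That is close to the members' median of 0.86. Pdcd1 was at 4.31 and 6.19 CPM in RP and 3.02 and 3.06 in Ctrl, a difference of 0.79 ± 0.36 (edgeR adjusted p = 0.241).

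Relative to Cd3e, the median member differed by 0.16 log2 units between RP and Ctrl (6 of 9 positive), where 20.7% of all genes were positive and their median was -0.59. All genes of a library are divided by the same Cd3e or Cd8a value and share its error. Cd3e itself was higher in RP, which lowers the ratios of all genes together. The ratios of the 9 members are therefore not independent of each other. None of the 9 passed limma, the test used for these log2 ratios, which called 0.942% of all genes. Ctla4 had 0.333 and 0.315 CPM per CPM of Cd3e in RP, 0.276 and 0.178 in R+X, 0.178 and 0.273 in R+D, 0.284 and 0.250 in DOX, 0.167 and 0.313 in DPD, and 0.115 and 0.162 in Ctrl. Both Ctrl libraries had the lowest Ctla4 ratios, and the RP difference was 1.18 ± 0.66 (limma adjusted p = 0.261). Btla differed by 2.05 ± 0.86 (limma adjusted p = 0.159), again with a Ctrl library at 0. The other 7 members lay between -0.27 and 0.25 in RP, with Havcr2 at 0.25 ± 0.50, Entpd1 at 0.23 ± 0.49 and Lag3 at 0.13 ± 0.50 (limma adjusted p from 0.767 to 0.976). Relative to Cd8a the RP median was 0.0187 (5 of 9 positive, 16.7% of all genes), and limma called 0 of 9 members and 0.23% of all genes.

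**Figure D3:**
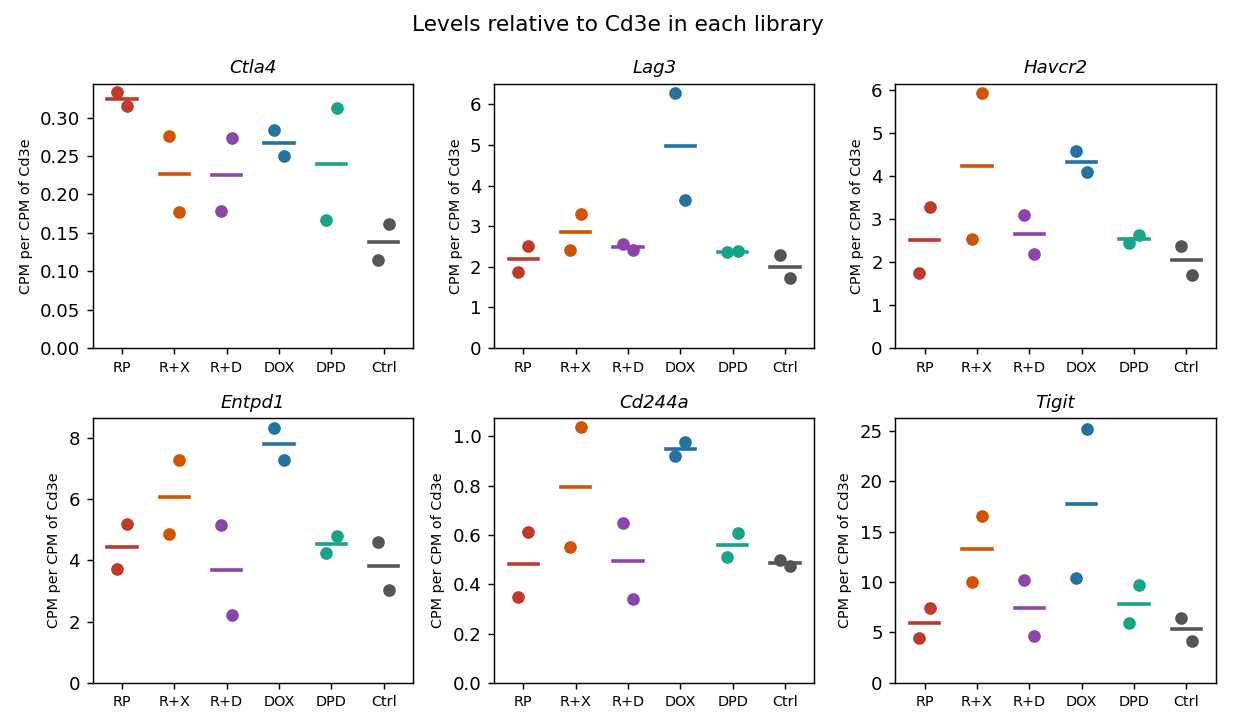
CPM of 6 members divided by CPM of Cd3e in the same library, by group (dots are libraries, short lines are means of 2). RP stands near Ctrl for Lag3, Havcr2, Entpd1 and Cd244a, while for Ctla4 both RP libraries (0.333 and 0.315) lie above both Ctrl libraries (0.115 and 0.162), and DOX stands high for Lag3, Havcr2, Entpd1, Cd244a and Tigit.

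In DOX the ratios to Cd3e were high for most genes, and Cd3e itself was low there (-1.18 ± 0.36 against Ctrl, edgeR adjusted p = 1). Limma called 2 members, Tigit (1.62 ± 0.49, adjusted p = 0.036) and Lag3 (1.25 ± 0.50, adjusted p = 0.040), but also 46.3% of all genes, and 97.8% of all genes were positive. The 2 of 9 members are thus a smaller share than that of all genes, and relative to Cd8a limma called 0 of 9 (0.0307% of all genes). Without single libraries of either group 0 or 1 member was called relative to Cd3e, 1 of them without DOX replicate 1.

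For the other treatments and for the averaged conjugate comparison, limma called 0 of 9 members relative to either gene, with 0.0615% to 8.99% of all genes called. Members with an unadjusted limma p under 0.05 relative to Cd3e were 1 in DPD (2.11% of all genes), 2 in R+X (13.8%) and 0 in R+D (7.34%) and in the averaged comparison (34.5%). In the averaged comparison 4 of 9 members were positive relative to Cd3e (median -0.10; all genes 14% positive, median -0.47) and 4 of 9 relative to Cd8a (median -0.00656; all genes 18.1% positive, median -0.37). Ctla4 stood at 0.28 ± 0.38 relative to Cd3e and Havcr2 at 0.05 ± 0.29. R+X replicate 2 had the lowest Cd8a of the 12 libraries and the highest ratio to Cd8a for 8 of 9 members. For Havcr2 that ratio was 3.93 CPM per CPM of Cd8a, against a median of 1.41 over the 12 libraries.

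How the members varied together was described by Pearson's r of log2 CPM over the 12 libraries, which share depth and scaling. The 36 pairs of members ran from -0.00531 (Lag3 with Tox) to 0.88 (Havcr2 with Cd244a), with a median of 0.54. Once group means were removed, the Havcr2 and Cd244a pair stood at 0.69. Ctla4 went with Cd3e at 0.85 (Spearman's rho 0.83) and within groups at 0.90. With the mean of the T cell list, r was 0.92 for Ctla4, 0.85 for Lag3, 0.73 for Entpd1, 0.68 for Cd244a, 0.67 for Cd160, 0.64 for Havcr2, 0.54 for Btla, 0.35 for Tox and 0.18 for Tigit. Within groups that r was 0.88 for Ctla4, 0.72 for Lag3, 0.36 for Cd160, 0.24 for Btla and 0.16 for Tox. It was 0.08 for Entpd1, -0.05 for Havcr2, -0.08 for Tigit and -0.29 for Cd244a. Such an r rests on the difference between the 2 libraries of each of 6 groups. In R+D these lay wide apart, with Ctla4 at 0.606 and 1.90 CPM, Lag3 at 8.68 and 16.8, and T cell sums of 63.7 and 108. Over these differences Ctla4 and Lag3 went most closely with T cell transcripts, while Entpd1, Havcr2, Tigit and Cd244a showed no positive correlation above 0.08. Ctla4 and Lag3 also went with the mean of the skeletal muscle list within groups (0.78 and 0.80).

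**Figure D4:**
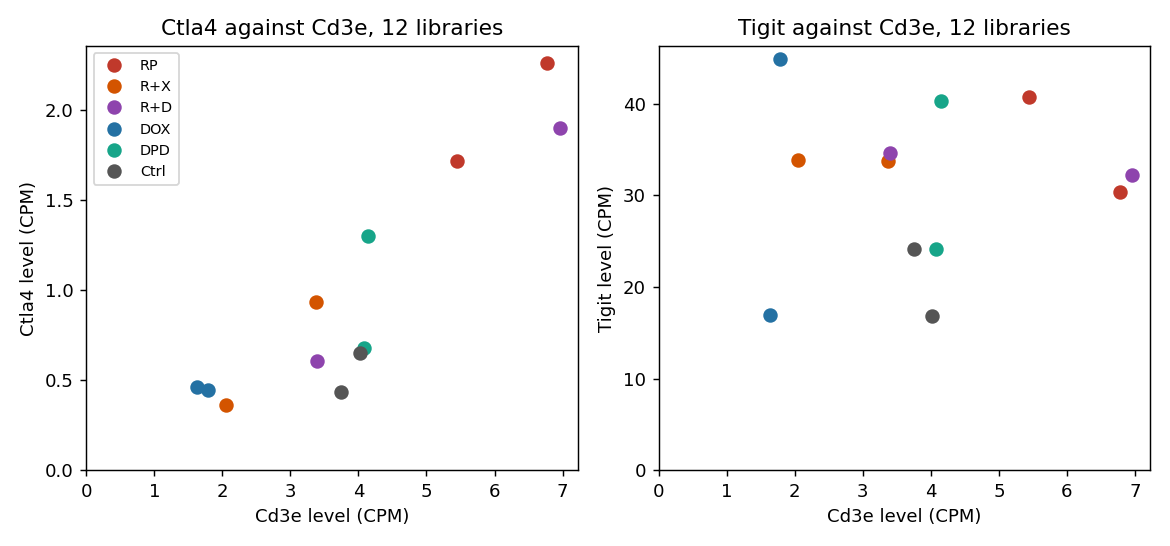
Ctla4 (left) and Tigit (right) against Cd3e in CPM, 1 dot per library, coloured by group. Ctla4 lies along a rising band (r = 0.85 of log2 CPM over 12 libraries), while Tigit shows no such band (r = 0.12): the DOX libraries lie at 16.9 and 44.9 CPM of Tigit with 1.63 and 1.78 CPM of Cd3e.

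The genes with levels most like each member, among those averaging at least 1 CPM, were named by the 3 highest r. For Ctla4 they were Il2rb, a chain of the IL-2 receptor (0.95), Cd3d, a chain of the T cell receptor complex (0.94), and Car3, a carbonic anhydrase gene abundant in muscle and fat (0.94). For Cd244a they were Lilrb4a, an inhibitory receptor gene of myeloid cells (0.97), Cd274, the PD-L1 gene (0.94), and D17H6S56E-5 (0.92). The last was also first for Havcr2 (0.95), followed by Slc2a3, a glucose transporter gene (0.95), and Fcrl6 (0.94). Entpd1 was nearest to Pim1, a kinase gene (0.95), Aplnr, a receptor gene of endothelium (0.94), and Pde1b (0.94). Among the genes nearest to Lag3 were Gli2 (0.94) and Arhgef5 (0.92), and Btla was nearest to Ptprj (0.97), Nlrp3 (0.95) and Tbc1d9 (0.95). Cd160 was nearest to Maob (0.90), Tmem86b (0.90) and Cdo1 (0.86), and Tox, at the lowest values, to Ednra (0.84), Myo1f (0.83) and Gask1b (0.82).

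Tigit behaved unlike the other receptors. It was at 30.4 and 40.8 CPM in RP, 33.7 and 33.9 in R+X, 34.7 and 32.2 in R+D, 16.9 and 44.9 in DOX, 24.1 and 40.3 in DPD, and 24.1 and 16.9 in Ctrl. The DOX libraries alone spanned nearly the whole range of the series, and RP differed from Ctrl by 0.80 ± 0.40 (edgeR adjusted p = 0.267). Its r was 0.12 with Cd3e, rank 9258 of 19524 genes, and 0.45 with Foxp3, the regulatory T cell factor, rank 6003. The genes most like it were Ranbp2, a nuclear pore gene (0.9965), Shprh, a ubiquitin ligase gene (0.995), and Pbrm1, a chromatin remodelling gene (0.992), which most cell types express.

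On GRCm38, RefSeq places Tigit at chr16:43626137-43665125 on the minus strand, where its 38989 bases overlap the end of Zbtb20, on the plus strand, by 8256 bases. GENCODE gives Tigit 15280 bases and a gap of 6264 bases to Zbtb20, and 16466 exon bases of GENCODE's Zbtb20 lie within RefSeq's Tigit. The count table's names were found more often in RefSeq than in GENCODE (8392 names in RefSeq alone and 240 in GENCODE alone), but the sources used here give neither the annotation nor the use of strand. Reads of the overlap can therefore not be told apart. Zbtb20 was listed at 1.71 to 6.44 CPM, and its r with Tigit was 0.63 over the libraries and 0.81 within groups. Over the libraries that r ranked 4213 of 19524 genes, and it was 0.45 without the 2 libraries farthest from the median of Zbtb20. The Tigit row is given here as counted, and its values are uncertain as a measure of the receptor. Without it the median of the remaining members in RP against Ctrl was 0.89.

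Transcripts of other cells moved with some members. The lymph node list (8 genes, Ccl21a among them) summed to 10.8 and 4.97 CPM in RP and 2.41 and 6.09 in R+D, against 1.03 to 3.26 in the other 8 libraries. The 4 libraries highest in Ctla4 were also the 4 highest in that sum, in the same order (RP replicate 1, R+D replicate 2, RP replicate 2 and DPD replicate 2). Ctla4 had an r of 0.85 with the mean of the muscle list and 0.78 within groups, and Lag3 had 0.86 and 0.80, while Entpd1 stood at -0.25 within groups and Havcr2 at 0.18. The B cell list (9 genes) summed to 3.94 and 2.74 CPM in RP and 2.07 and 2.97 in R+D, against 1.62 to 2.53 in the other 8 libraries, with Ms4a1 at or near 0. Of its 6 tested genes 5 were positive in RP against Ctrl, and in the averaged comparison Blk stood at 2.61 ± 0.64 and Pax5 at 1.12 ± 0.35 (edgeR adjusted p = 0.147 and 0.175). There Cd79b stood at 0.93 ± 0.61, and Fcer2a went the other way at -0.49 ± 0.32 (edgeR adjusted p = 0.384 and 0.377). With the mean of those 6 genes r was 0.93 for Ctla4 and 0.87 for Lag3. NK cell markers summed to 50.9 and 65.9 CPM in RP, against 25.5 and 22.0 in Ctrl, and regulatory T cell markers to 68.8 and 75.0, against 40.1 and 37.1. Endothelial markers summed to 173 and 127 CPM in RP, against 103 and 88.2 in Ctrl, with 9 of 9 positive and 0 past the edgeR threshold, and their r with Entpd1 was 0.79 over the libraries and 0.097 within groups. Of 9 dendritic cell markers 8 were positive in RP against Ctrl (0 past the threshold), and their r with Ctla4 was 0.92, though their sum was 428 and 328 CPM in RP, against 480 and 478 in Ctrl. Macrophage markers summed to 1909 and 1611 CPM in RP, against 1496 and 1661 in Ctrl. The part of these cells in the members' values was not tested. The libraries richest in muscle transcripts all received the conjugate (275 and 104 CPM in RP, 367 in R+D replicate 2). Fits with the muscle covariate therefore cannot separate muscle content from the conjugate.

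**Figure D5:**
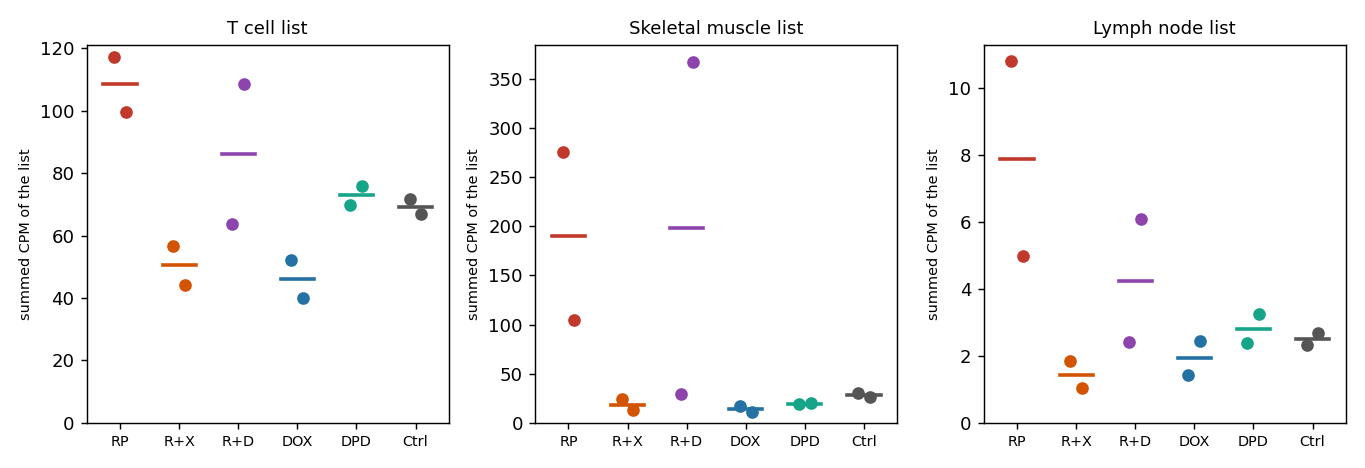
Summed CPM of the T cell (14 genes), skeletal muscle (14 genes) and lymph node (8 genes) lists in each library, by group. RP replicates 1 and 2 and R+D replicate 2 are the 3 highest libraries in each panel, and the Ctla4 level is highest in the same 3.

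The ligands and partners of the receptors were counted from a list of 14 genes, of which Fgl1, a LAG-3 ligand, was too low to test. In the averaged conjugate comparison 8 of 13 were positive (median 0.0546; all genes 0.0285) and 0 passed edgeR in either direction. Lgals9, the galectin-9 gene, had 51.9, 69.6 and 73.7 CPM as the lowest, median and highest library with the conjugate, against 67.4, 93.9 and 105 without it. The Lgals9 difference was -0.42 ± 0.12 (edgeR adjusted p = 0.168), opposite in sign to that of its receptor gene Havcr2. Of the other TIM-3 ligands, Hmgb1 was at -0.22 ± 0.12 and Ceacam1 at 0.05 ± 0.22, and Lgals3, a LAG-3 ligand, was at -0.32 ± 0.16. The CTLA-4 ligands Cd86 (0.39 ± 0.15) and Cd80 (0.47 ± 0.22) were on the higher side with the conjugate. The TIGIT ligands Pvr (0.10 ± 0.09), Nectin2 (-0.12 ± 0.12) and Nectin3 (-0.14 ± 0.13), the HVEM gene Tnfrsf14 (0.08 ± 0.09) and Cd48 (0.11 ± 0.14) lay near 0. Of the adenosine pathway beside Entpd1, Nt5e (CD73) was at 0.05 ± 0.16 and Adora2a, an adenosine receptor gene, at 0.63 ± 0.28. The edgeR adjusted p of these 13 ranged from 0.168 to 0.90.

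Among 12 other inhibitory receptor genes, 10 were positive in the averaged conjugate comparison (median 0.34) and 0 passed edgeR. Those of smallest p were Pvrig, a receptor gene related to TIGIT (1.33 ± 0.41), Lilrb4a (0.31 ± 0.10), Cd5 (0.87 ± 0.29) and Klrg1 (0.58 ± 0.28). Of 14 transcription factor genes linked with exhaustion, 12 were positive (median 0.18) and 0 passed, with Nr4a3 at 0.94 ± 0.23, Id2 at 0.38 ± 0.10, Irf4 at 0.79 ± 0.24 and Tbx21 at 0.66 ± 0.26. Of 9 signalling partners of the receptors, 4 were positive (median -0.0074) and 0 passed, with Sh2d1b1, the gene of an adaptor of CD244 and related receptors, at -0.57 ± 0.22, Lck, the T cell kinase gene, at 0.38 ± 0.16, Ptpn11, the SHP-2 gene, at 0.27 ± 0.12 and Inpp5d, the SHIP-1 gene, at 0.23 ± 0.12. The edgeR adjusted p of the genes named from these 3 lists ran from 0.147 to 0.307. T cell genes themselves were positive in 13 of 14 cases (median 0.56) and 0 passed.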

How the data were processed

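Bulk RNA-seq was made from MC38 tumours with TRIzol extraction and NEBNext Ultra libraries, per the labels' protocols. The authors deposited whole-number read counts per gene, in 1 table of 12 libraries and in 12 per-library files that held identical values. HISAT2 2.1.0, StringTie 1.3.5, DESeq2 and GRCm38 are named in the submitters' processing notes, and which annotation and strand setting served the counting is not stated there. The labels abbreviate the combined groups, and R+X was read as the conjugate with DOX and R+D as that with DPD since DOX has an X and DPD has none; if these were exchanged, their values would swap.

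The deposited counts were tested with edgeR 4.0.16 in R 4.3.3 (TMM scaling, filterByExpr, quasi-likelihood F test, all 12 libraries in 1 fit, 14 comparisons, Benjamini-Hochberg adjustment over 19525 genes, biological coefficient of variation 0.257, 6 residual degrees of freedom). Errors of fold changes are standard errors, and intervals are 95%. Log2 ratios to Cd3e or Cd8a used log2 CPM with a prior count of 2 and limma 3.58.1. Alternatives were DESeq2 1.42.0, limma-voom, RLE scaling, no filter, only the groups compared, skeletal muscle or skin scores as covariates, and leaving out each library. The steps were tested on simulated data. Whether replicate libraries stem from different mice is not in the labels. The p-values therefore only set group differences against the spread among these libraries, which may in part be technical. The labels name no batch. The members and lists were chosen with earlier results of these data known. Named genes were the 9 members, Pdcd1, Cd3e and Cd8a, every ligand, in the other lists up to 4 genes of smallest p in the averaged conjugate comparison, and the 3 genes most like each member, of which 1 is not reported here. Total counts were 46547114 to 56462259 per library.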

Additional observations from a re-analysis of the deposited data

Results flagged for a closer look

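Beside Ctla4, the count table holds 2 rows named as copies of it, Ctla4_1 and Ctla4_2, which the comparisons above leave out except where Ctla4 was summed with the first of them. Each averaged 0.835 CPM in RP, and both RP libraries lay above both Ctrl libraries. In RP against Ctrl, Ctla4_1 differed by 1.96 ± 0.60 log2 units (edgeR adjusted p = 0.16) and Ctla4_2 by 1.96 ± 0.59 (edgeR adjusted p = 0.156). The copies had equal counts in all libraries except DPD replicate 1, with 16 reads for Ctla4_1 and 18 for Ctla4_2. What sequence the copies stand for is not given in the sources used here.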

How the results depend on the processing

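No paired analysis was possible because the labels number no replicates. DESeq2 called 2 members in RP against Ctrl, 1 in R+X against RP and 1 in the averaged conjugate comparison, where edgeR called 0; the cause was not tested. Leaving out 1 library gave 0 to 2 calls in the averaged comparison, and 0 to 1 in DOX against Ctrl relative to Cd3e, where all libraries gave 2. The muscle covariate turned Cd160 in RP against Ctrl (-0.045), Ctla4 in DOX against Ctrl (0.28), Lag3 in R+X against Ctrl (0.093), Ctla4 (-0.42) and Tigit (0.24) in R+D against R+X, and Ctla4 (-0.0453) and Lag3 (-0.14) in the averaged comparison. The skin covariate turned Tigit in R+D against R+X (0.0133). An edgeR offset turned Tox in RP against Ctrl relative to Cd3e (0.33) and Cd8a (0.50), and a prior count of 0.5 turned Cd160 relative to Cd8a in the averaged comparison (0.00802). Leaving out DOX replicate 2, or the DOX group, from the estimate of spread (chosen after seeing the data) gave 0 members in RP against Ctrl, with Entpd1 at an edgeR adjusted p of 0.061 and 0.0622. Low counts limit Btla, Tox, Cd160 and Ctla4 most.

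Without 1 library at a time, these log2 differences changed sign, with the following lowest and highest values. In RP against Ctrl they were Tox -0.63 to 1.81 and Cd160 -0.19 to 0.997. In DOX against Ctrl they were Ctla4 -0.51 to 0.073, Lag3 -0.25 to 0.41, Havcr2 -0.28 to 0.12, Tigit -0.27 to 1.13, Cd160 -0.97 to 0.21, Btla -0.89 to 5.71 and Entpd1 -0.38 to 0.13. In DPD against Ctrl it was Cd160 -0.60 to 0.58. In R+X against Ctrl they were Ctla4 -0.56 to 0.78, Lag3 -0.21 to 0.11, Cd160 -0.71 to 0.48, Entpd1 -0.14 to 0.37 and Cd244a -0.025 to 0.18. In R+D against Ctrl they were Tox -0.15 to 0.064, Cd160 -0.023 to 1.16 and Entpd1 -0.073 to 0.44. In DPD against DOX they were Lag3 -0.071 to 0.58, Tigit -0.48 to 0.93 and Cd160 -0.061 to 0.70. In R+D against R+X they were Ctla4 -0.098 to 1.75, Tigit -0.088 to 0.027, Btla -0.27 to 0.18 and Entpd1 -0.0497 to 0.15. Relative to Cd3e, RP against Ctrl gave Lag3 -0.076 to 0.34, Havcr2 -0.20 to 0.71, Tigit -0.21 to 0.53, Tox -0.96 to 0.86, Cd160 -0.87 to 0.32, Entpd1 -0.0696 to 0.54 and Cd244a -0.47 to 0.33, and the averaged comparison gave Havcr2 -0.15 to 0.25, Tigit -0.31 to 0.11, Cd160 -0.31 to 0.088 and Entpd1 -0.39 to 0.016. Relative to Cd8a, RP against Ctrl gave Lag3 -0.29 to 0.28, Havcr2 -0.12 to 0.35, Tigit -0.15 to 0.19, Tox -1.59 to 1.204, Entpd1 -0.16 to 0.34 and Cd244a -0.66 to 0.23, and the averaged comparison gave Lag3 -0.24 to 0.058, Havcr2 -0.14 to 0.42, Tigit -0.27 to 0.25, Cd160 -0.18 to 0.15, Entpd1 -0.26 to 0.079 and Cd244a -0.34 to 0.11.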
